A study of Mus musculus with 2 samples.

Results

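The genes described here encode metalloproteinases that work outside the cell or at its surface, together with their tissue inhibitors. The 41 members are 13 matrix metalloproteinase genes (Mmp), 4 genes for tissue inhibitors of metalloproteinases (Timp), 6 membrane-bound ADAM genes (Adam) and 18 genes for secreted ADAMTS proteinases (Adamts). They were taken by gene identifier, with symbols from GENCODE M21, and all 41 were found among the 43346 genes of both gene tables. Whole stomachs of mouse embryos (strain B6NCrl, both sexes, embryonic day 15.5) were pooled and total RNA was sequenced, and no transgene, treatment or second condition is labelled. Replicate 1 pooled 78 embryos and replicate 2 pooled 62, and both form 1 group of 2 biological replicates. Size-selected RNA longer than 200 nt was used, with 10 ng as input and ERCC spike-in RNAs added. The data therefore show how strongly each gene was expressed in the pools and how far the 2 pools differed.

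MMPs cut collagens, other matrix proteins and cell-surface proteins, and most are made as inactive precursors whose pro-domain has to be cut off. TIMPs bind the active site of MMPs and of some ADAMs. ADAM proteinases release the outer parts of membrane proteins such as growth factor precursors and Notch, while ADAMTS proteinases cut proteoglycans, procollagens and other matrix proteins. In embryonic gut the matrix is made mainly by the mesenchyme, which here includes the precursors of smooth muscle.

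The tables held 43209506 expected counts on genes in replicate 1 and 44257493 in replicate 2. TPM is a level per transcript length, scaled to a fixed library total. Detected means that a gene reached 1 TPM in each of the 2 libraries. Paired values below are those of replicate 1 and replicate 2. The stomach label could be checked: Barx1 and Tcf21, factors of gastric mesenchyme, had 142 and 174 TPM in replicate 1, with 166 and 179 TPM in replicate 2, and all 8 smooth muscle markers were detected. Markers of neighbouring organs were present, and their levels were not equal in the pools. The summed level of 7 liver markers was 1768 TPM in replicate 1 and 678 TPM in replicate 2, that of 6 exocrine pancreas markers 6166 and 8346 TPM, and that of 6 intestine markers 826 and 1017 TPM. Within the stomach, 11 markers of the forestomach squamous epithelium summed to 2973 and 1576 TPM. The part of these tissues in the values below was not tested. In such bulk samples fewer cells of a type and less RNA per cell cannot be told apart. Errors are SDs over both libraries (n = 2). Intervals and floors are 95% limits of counting error only. They treat each read as an independent molecule, which reads without molecular identifiers are not, so they can be too narrow.

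Of the 41 members, 34 (82.9%) were detected. Over all genes the share was 35.9%, and over the 21474 protein-coding genes, the type of every member, it was 64.5%. The median level of the members was 7.26 and 7.82 TPM, against 5.70 and 5.72 TPM for protein-coding genes. The members were chosen with earlier results of these data known, so these values describe the list and are no test of the families. Among relatives outside the list, 1 of 10 other Mmp genes and 7 of 13 other Adam genes were detected. So were 6 of 8 other Adamts and ADAMTS-like genes. All 4 Timp and all 6 Adam genes were detected, with 10 of 13 Mmp and 14 of 18 Adamts genes. In both libraries 19 members reached 10 TPM, namely 6 Mmp, 3 Timp, 5 Adam and 5 Adamts genes. The 41 genes together took 0.192% and 0.198% of the gene counts.

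**Figure D1:**
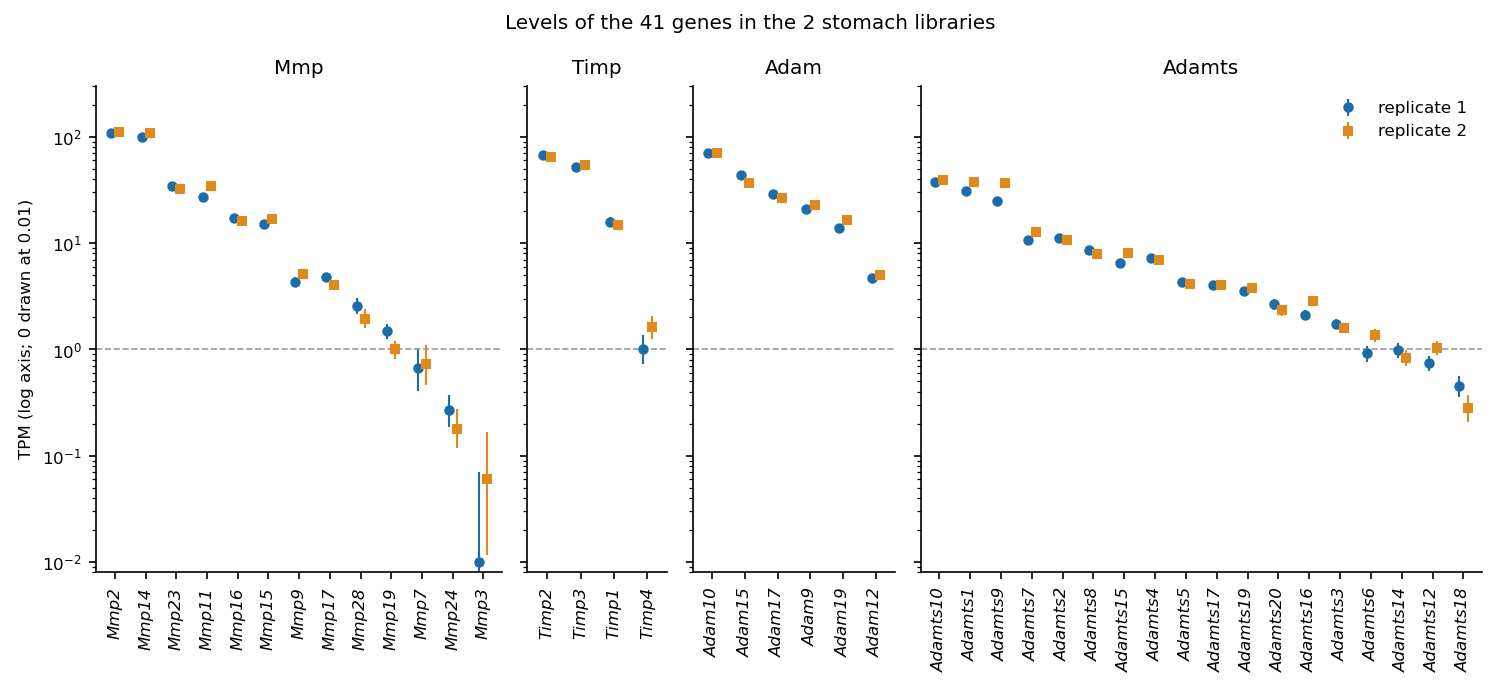
TPM of each of the 41 genes (log axis, one panel per family, genes in order of mean TPM) in replicate 1 (circles) and replicate 2 (squares), with bars for 95% counting intervals and a dashed line at 1 TPM. Mmp2 and Mmp14 head their family near 100 TPM, 3 Timp and 5 Adam genes stand above 10 TPM, and the 7 undetected genes are 3 Mmp and 4 Adamts genes.

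Among the MMPs, the secreted gelatinase Mmp2 and the transmembrane proteinase Mmp14, which activates pro-MMP2 at the cell surface, stood far above the rest. Mmp2 had 107 TPM in replicate 1 and 110 TPM in replicate 2, a mean of 109 ± 1.8 TPM (SD, n = 2). Mmp14 had 99.8 and 108 TPM, a mean of 104 ± 5.6 TPM. The ranges of Mmp2 and Mmp14 over both libraries overlapped, although Mmp2 was higher in each library. Their counting intervals overlapped in replicate 2 but not in replicate 1. Together Mmp2 and Mmp14 held 65.7% and 65.9% of the summed Mmp level. They stood at the 93.5 and 93.1 percentiles of protein-coding genes by mean TPM.

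Next came Mmp23, an unusual type II membrane MMP, with 34.4 and 32.3 TPM, and Mmp11 (stromelysin-3), a mesenchymal MMP that is activated inside the cell by furin, with 27.2 and 34.2 TPM. Their ranges overlapped. The transmembrane MMPs Mmp16, with 17.3 and 16.3 TPM, and Mmp15, with 15.2 and 17.0 TPM, overlapped as well. Counted together and without Mmp23, the 4 other transmembrane MMPs (Mmp14, Mmp15, Mmp16 and Mmp24) summed to 133 and 141 TPM. This was 42.0% and 42.7% of the family. The 2 gelatinases (Mmp2 and Mmp9) summed to 112 and 115 TPM.

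A second tier of MMPs lay between 1 and 10 TPM. The gelatinase Mmp9, abundant in neutrophils and osteoclasts, had 4.34 and 5.09 TPM, and the GPI-anchored Mmp17 had 4.84 and 4.03 TPM. Both ranges overlapped. Mmp28 (epilysin) had 2.56 and 1.95 TPM and Mmp19 had 1.49 and 1.00 TPM, so Mmp19 was at the detection threshold in replicate 2. Of the 10 neutrophil markers 9 were detected, and the list's sum was 752 and 585 TPM. Most of that sum lay on S100a8, with 408 and 314 TPM, and S100a9, with 192 and 149 TPM. Ly6g was not detected, at 0.88 and 0.31 TPM. The difference between the pools was not equal over the list. Elane had 9.75 and 3.34 TPM and Mpo had 19.1 and 9.09 TPM, while Camp had 24.3 and 25.9 TPM. Of 5 osteoclast markers only Acp5 and Ctsk, which macrophages also express, were detected, and Dcstamp, which osteoclasts need for fusion, had 2 and 0 counts. The part of neutrophils in the level of Mmp9 was not tested.

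Mmp7 (matrilysin), a small MMP made by epithelia, was not detected, with 0.67 TPM (0.408 to 1.03, 20 counts) in replicate 1 and 0.73 TPM (0.459 to 1.11, 22 counts) in replicate 2. The transmembrane Mmp24, known from nervous tissue, had 0.27 and 0.18 TPM. Stromelysin-1 (Mmp3) had 0 counts in replicate 1, where the one-sided floor of 3 counts corresponds to 0.0572 TPM and the two-sided interval used for the other genes ends at 0.0703 TPM, and 3 counts or 0.06 TPM in replicate 2. Mmp3 was thus the lowest of the 41 genes, below Mmp24 in each library.

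Mmp3 and Mmp7 both lie in a chromosome 9 cluster of 10 MMP genes that spans 427 kb (mm10 chr9:7272514-7699585) with no other protein-coding gene inside. The cluster also holds Mmp1a, Mmp1b, Mmp8, Mmp10, Mmp12, Mmp13, Mmp20 and Mmp27, which are not members. Of the 10 genes only Mmp8, the neutrophil collagenase, was detected, with 9.48 TPM (689 counts) in replicate 1 and 6.70 TPM (489 counts) in replicate 2. Each of the other 9 stayed below 1 TPM in both libraries, and Mmp1a and Mmp1b had 0 counts. All the detected Mmp members lie elsewhere in the genome.

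Promoter sequences are shown for the undetected cluster genes Mmp3 and Mmp7, for Mmp14 as an abundant Mmp gene, and for Adamts1 as the only detected member, of those with a promoter entry, with TATAAA. A RefSeq promoter (GRCm38.p6, 300 bases around the start) was found for 25 of the 41 members. The starts of the Adamts20 and Mmp11 entries lie 61068 and 3994 bases from the gene starts in GENCODE M21. The 150 bases before the start of Mmp3 (chr9:7445672-7445821, + strand), Mmp7 (chr9:7691940-7692089, + strand), Mmp14 (chr14:54431448-54431597, + strand) and Adamts1 (chr16:85803114-85803263, - strand) read as follows, with capitals for the AP-1 motif (TGACTCA or TGAGTCA), the TATA box (TATAAA) and the GC box (GGGCGG or CCGCCC).
Mmp3: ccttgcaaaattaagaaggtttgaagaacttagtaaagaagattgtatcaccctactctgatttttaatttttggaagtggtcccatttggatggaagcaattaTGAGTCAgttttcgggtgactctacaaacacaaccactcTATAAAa
Mmp7: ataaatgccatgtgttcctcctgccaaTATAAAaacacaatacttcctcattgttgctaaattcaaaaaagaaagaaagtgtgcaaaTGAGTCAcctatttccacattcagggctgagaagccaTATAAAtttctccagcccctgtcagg
Mmp14: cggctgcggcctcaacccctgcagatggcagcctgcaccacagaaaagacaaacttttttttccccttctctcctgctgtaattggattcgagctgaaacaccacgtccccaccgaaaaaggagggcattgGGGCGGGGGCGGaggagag
Adamts1: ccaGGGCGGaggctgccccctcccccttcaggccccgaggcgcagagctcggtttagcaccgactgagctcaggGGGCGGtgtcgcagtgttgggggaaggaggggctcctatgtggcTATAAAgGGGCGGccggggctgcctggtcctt

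The AP-1 letters were found in the promoters of Mmp3, Mmp7 and Adam19, 3 of 25 members, and in 5.20% of 32851 RefSeq promoters. AP-1 is the Fos and Jun dimer, known to act on several MMP genes. TATAAA on the gene's strand was found for Mmp3, Mmp7 and Adamts1, and in 8.32% of all promoters. The GC box letters, read on both strands, were found in 19 of the 25 and in 35.7% of all. The observed over expected ratio of CpG dinucleotides had a median of 0.683 over the 25 members and 0.384 over all promoters. Among the 6 undetected members with an entry it was 0.0845 for Mmp3, 0.0878 for Mmp7, 0.253 for Adamts12, 0.712 for Adamts18, 0.918 for Mmp24 and 1.01 for Adamts14. Among detected members Mmp14 had 0.425 and Timp4 had 0.104. A run of matching letters is a description and not a binding site.

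All 4 inhibitor genes were detected, and 2 of them carried most of the family's RNA. Timp2, which inhibits MMPs and also tethers pro-MMP2 to MMP14, had 67.9 TPM in replicate 1 and 64.2 TPM in replicate 2. Timp3, the matrix-bound inhibitor that also acts on ADAM17 and ADAMTS proteinases, had 52.0 and 53.8 TPM. Both together held 87.7% of the summed Timp level in each library.

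Timp1 followed with 15.8 and 14.9 TPM. Timp4, best known from adult heart, was at the threshold with 1.01 TPM (0.724 to 1.37, 41 counts) and 1.62 TPM (1.25 to 2.06, 66 counts). The order Timp2, Timp3, Timp1, Timp4 held without overlap between neighbours. Timp1, Timp3 and Timp4 each lie inside a synapsin gene on the opposite strand. Their hosts were low, with Syn1 at 1.55 and 2.28 TPM, Syn3 at 2.86 and 2.87 TPM and Syn2 at 2.53 and 2.20 TPM. The exons of Timp3 share 21.3% of their bases with Syn3 and those of Timp4 1.53% with Syn2. Across the families 14 members share exon bases with a gene on the other strand, at most 22.3% (Mmp19 with Tmem198b, which had 12.6 and 13.3 TPM). The strand setting of the quantification was not given in the sources used here, so such reads cannot be told apart.

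Summed over each family, Timp genes reached 137 and 134 TPM and Mmp genes 316 and 331 TPM. The log2 ratio of Timp to Mmp was -1.21 in replicate 1 and -1.30 in replicate 2, a mean of -1.25 ± 0.064 (SD, n = 2). No test was made, since 2 values cannot reach significance in an exact test. On CPM, which are not divided by length, the mean log2 ratio was -0.77.

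All 6 Adam genes were detected, in an order that, over all transcript models, did not overlap between neighbours. Adam10, the principal sheddase of Notch and of E-cadherin, led with 70.1 TPM in replicate 1 and 70.5 TPM in replicate 2. Adam15 had 43.9 and 36.6 TPM. Adam17, which releases TNF and ligands of the EGF receptor, had 29.2 and 26.5 TPM. These 3 genes were followed by Adam9, a widely expressed sheddase, with 21 and 22.9 TPM. Adam19 (meltrin beta), needed for heart valves and septa in mice, had 14.0 and 16.6 TPM. Adam12 (meltrin alpha), a gene of embryonic muscle and mesenchyme, was lowest at 4.71 and 5.01 TPM, near the median of protein-coding genes.

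Several Adam genes spread their RNA over transcript models that differ in short coding stretches, which are shown because they mark what the model shares measure. The sequences are from GENCODE M21 transcripts (GRCm38) and read 5′ to 3′ on the transcript strand. The first pair are alternative stretches of Adam9, in models Adam9-201 (26 bases, chr8:24962860-24962885, - strand) and Adam9-202 (25 bases, chr8:24962914-24962938, - strand). The next are 2 coding exons of Adam15 (72 bases, chr3:89340401-89340472, and 75 bases, chr3:89340863-89340937, both - strand) that Adam15-201 has and Adam15-202 lacks. The last is a 19-base extension in Adam17-203 (chr12:21347431-21347449, - strand). Capitals mark the base that differs between the 2 Adam9 stretches.
Adam9-201: ggggcccaggtgtctccagaccGcca
Adam9-202: gggcccaggtgtctccagaccAcca
Adam15, 72 bases: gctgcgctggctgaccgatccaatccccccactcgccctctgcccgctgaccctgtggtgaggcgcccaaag
Adam15, 75 bases: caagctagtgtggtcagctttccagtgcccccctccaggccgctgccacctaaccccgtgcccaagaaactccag
Adam17-203: tgcatacaaattcatatag

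The 2 Adam9 stretches lie 28 bases apart. Aligned over 25 bases they differ by 1 substitution, G22A, counted from the 5′ end of the shorter stretch with the base of Adam9-201 first, and the longer one has 1 more base at its 5′ end. The models shared the gene's TPM almost evenly. Adam9-201 held 51.2% in replicate 1 and 48.6% in replicate 2, and Adam9-202 held 48.8% and 51.4%, so the leading model differed between the libraries.

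For Adam15, a proteinase whose cytoplasmic tail differs between splice forms, the leading model Adam15-202 held 36.4% and 40.6% of the TPM. The 72-base exon was in 30.4% and 37.2% of the TPM of the models that span it, and the 75-base exon in 18.6% and 16.2%. Both lengths are multiples of 3. A short model without a coding sequence, Adam15-212 (418 bases), held 30.3% in replicate 1 and 20.2% in replicate 2 from 131 and 73.0 counts. Without this and all other models that are not typed as protein-coding, retained-intron models among them, the level of Adam15 was 22.1 and 20.5 TPM. Adam15 then ranked 4 of the 6 Adam genes, against rank 2 over all models.
The 19-base stretch of Adam17 is in 1 model typed as a target of nonsense-mediated decay, the pathway that degrades RNA with an early stop. That model held 10.6% and 5.07% of the TPM of Adam17. Counts on all models of Adam17 without a protein-coding label were 477 and 240.0, while those on protein-coding models were 3364 and 3284.

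The Adamts genes covered a range from 39.5 TPM down to 0.28 TPM. The leaders were Adamts10, a proteinase of fibrillin microfibrils, with 37.2 and 39.5 TPM, and Adamts1, a versican-cleaving proteinase, with 30.9 and 37.4 TPM. Adamts9, a versican-cleaving proteinase conserved down to invertebrates, had 24.8 and 36.6 TPM. The ranges of Adamts10 and Adamts1 over both libraries overlapped, and so did those of Adamts1 and Adamts9. Within each library the order was Adamts10, Adamts1, Adamts9.

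The 7 proteoglycan-cleaving genes (Adamts1, Adamts4, Adamts5, Adamts8, Adamts9, Adamts15 and Adamts20) were all detected. They summed to 85.0 TPM in replicate 1 and 103 TPM in replicate 2, or 53.6% and 56.7% of the family. Over protein-coding transcript models alone the sum was 58.5 and 64.4 TPM, and Adamts20 was then not detected. Adamts8 had 8.59 and 7.82 TPM, Adamts15 had 6.55 and 8.03 TPM, and Adamts4 (aggrecanase-1) had 7.26 and 6.91 TPM. Adamts5 (aggrecanase-2) had 4.27 and 4.15 TPM, and Adamts20, needed for pigment cell spread in mouse skin, had 2.67 and 2.33 TPM. Adamts8, Adamts15 and Adamts4 overlapped in that order, neighbour with neighbour.

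Some of these genes are close neighbours in the genome. Adamts1 and Adamts5 lie 53.1 kb apart on chromosome 16 on the same strand, and Adamts15 and Adamts8 lie 20.1 kb apart on chromosome 9 on opposite strands, with no protein-coding gene between either pair. Adamts1 stood well above Adamts5 in both libraries, whereas the ranges of Adamts8 and Adamts15 overlapped.

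Of the 3 procollagen N-proteinases, which trim the amino end of fibrillar procollagens, Adamts2 had 11.2 and 10.8 TPM and Adamts3, which also processes VEGF-C, had 1.74 and 1.59 TPM. Adamts14 was not detected, with 0.99 TPM (0.837 to 1.15) in replicate 1 and 0.83 TPM (0.694 to 0.985) in replicate 2. Adamts7, which cleaves cartilage oligomeric matrix protein, had 10.7 and 12.7 TPM, while its relative Adamts12 was not detected at 0.74 and 1.04 TPM. Adamts6, the relative of Adamts10, was not detected at 0.92 and 1.37 TPM. Each of Adamts6 and Adamts12 was above 1 TPM in replicate 2 and below it in replicate 1, so their calls rest on 1 library.

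Among the remaining genes Adamts17, like Adamts10 linked to a human disorder of short stature and lens dislocation, had 4.08 TPM in both libraries. Adamts19, linked to heart valve structure, had 3.57 and 3.78 TPM, and Adamts16 had 2.12 and 2.87 TPM. Adamts18, which in mice acts in eye and lung development, was lowest, with 0.45 TPM (0.355 to 0.562, 77 counts) and 0.28 TPM (0.206 to 0.370, 48 counts). The neighbours Adamts20 and Adamts16 overlapped, as did Adamts7 and Adamts2, Adamts6 and Adamts14, and Adamts14 and Adamts12.

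The gene levels of several Adamts members rested mainly on transcript models that are not typed as protein-coding. Adamts9 was the clearest case. Its model Adamts9-203, a retained-intron model of 5 exons and 4519 bases (chr6:92845594-92860155, - strand), held 80.1% of the gene's TPM in replicate 1 and 85.1% in replicate 2. Only 18.2% of its bases lie in coding exons of Adamts9, and 3698 bases form 1 stretch outside them. It took 2710 and 4265 counts, whereas the protein-coding models Adamts9-201 and Adamts9-205 together took 426 and 380 counts. Over protein-coding models the level of Adamts9 was 2.10 and 1.87 TPM, against 24.8 and 36.6 TPM over all models, and Adamts9 ranked 12 of the 18 genes, against rank 3 over all models. A gene on the opposite strand, A730049H05Rik, shares 1215 exon bases with Adamts9-203 and had 0.40 and 0.49 TPM.

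Adamts10 was led by Adamts10-207, a nonsense-mediated decay model, at 29.6% and 24.7% of the TPM. Its only protein-coding model, Adamts10-201, held 14.7% and 20.5%, or 5.47 and 8.08 TPM. Adamts20 was led by a retained-intron model, Adamts20-203, at 65.6% and 56.2%, with the protein-coding Adamts20-204 at 34.0% and 43.8%. By counts, which are not divided by length, Adamts20-204 led instead with 64.9% and 73.9%. In these 3 genes protein-coding models held under 50% of the TPM in both libraries, whereas in 25 of the 41 members they held at least 90% in both, or in the 1 library with counts.

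**Figure D2:**
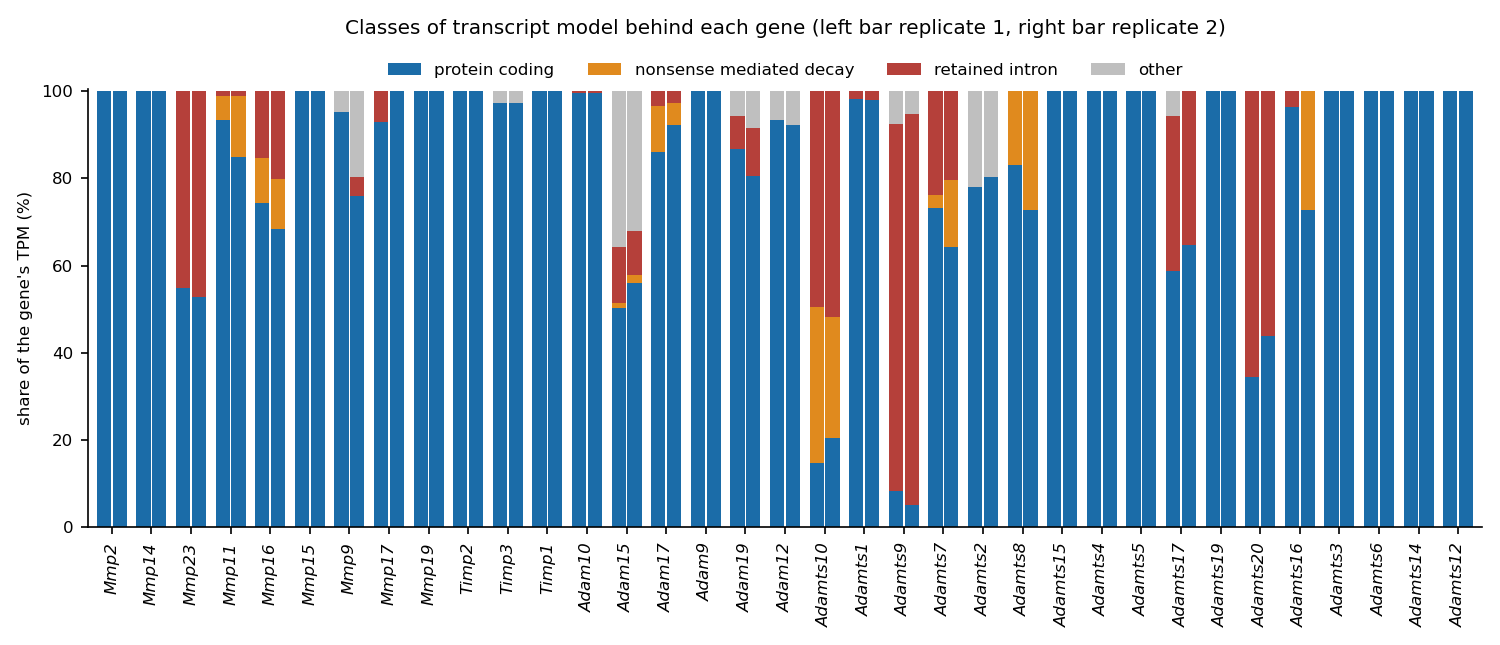
Share of each gene's TPM (%) on protein-coding, nonsense-mediated decay, retained-intron and other transcript models, as stacked bars for replicate 1 (left bar) and replicate 2 (right bar), for the 35 members with at least 100 counts in each library. Adamts9, Adamts10 and Adamts20 are mostly made of models that are not protein-coding, as the 8.47% and 5.11% protein-coding share of Adamts9 shows.

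**Figure D3:**
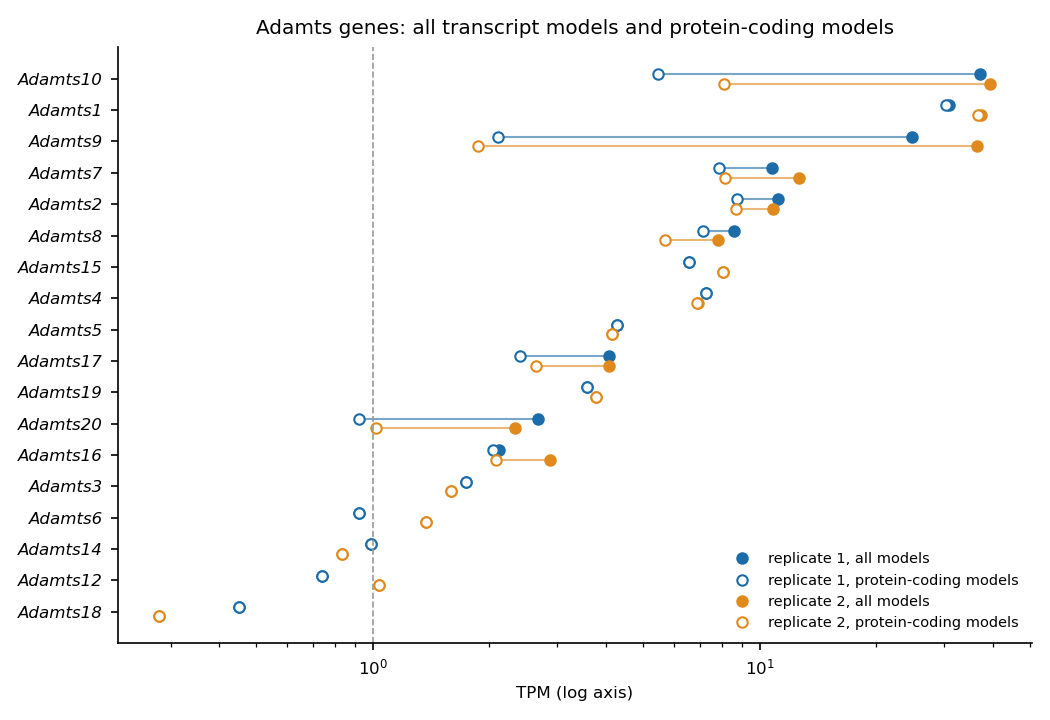
TPM (log axis) of the 18 Adamts genes over all transcript models (filled) and over protein-coding models alone (open), in replicate 1 and replicate 2, joined by a line for each library. The lines are longest for Adamts9 and Adamts10, and Adamts1 leads once protein-coding models alone are counted.

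Summed in the same way, Adamts genes reached 159 and 182 TPM and Adam genes 183 and 178 TPM. The log2 ratio of Adamts to Adam was -0.20 and 0.03, a mean of -0.086 ± 0.17 (SD, n = 2). Over the 18 Adamts and 6 Adam members, neither set was higher beyond the spread between libraries. The sums leave out 13 other Adam genes, which together reached 126 and 119 TPM, and Adamts13, with 0.25 and 0.12 TPM. The ratio therefore describes the listed members and not the whole families. Over protein-coding models alone, an alternative chosen after seeing the data, the Adamts sum was 93.4 and 103 TPM and the Adam sum 154 and 156 TPM, with a mean log2 ratio of -0.66. Under the same restriction Adamts20 was no longer detected, which left 33 detected members.

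The leading model was the same in both libraries for 33 of the 35 members that had 100 or more counts in each, the exceptions being Adam9 and Timp1. In 17 of them the leading model held at least 90% of the TPM in both. The 2 models of Timp1 carry coding sequences of equal length and held 50% each in replicate 1, and 47.2% and 52.8% in replicate 2. Adamts17-201 held 36.1% in replicate 1 and 64.7% in replicate 2. This model carries an 81-base coding exon (chr7:67062066-67062146, + strand) that was in 61.3% of the spanning TPM in replicate 1 and 100% in replicate 2, from 269 of 434 and 484 of 484 counts. It is shown because it is the coding exon whose share differed most between the libraries among those listed here.
Adamts17, 81 bases: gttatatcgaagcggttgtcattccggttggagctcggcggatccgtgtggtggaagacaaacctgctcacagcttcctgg

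The other members with a leading model below 60% were Mmp16, Mmp23 and Adamts7. Mmp16-201 held 48.5% and 48.3%, Mmp23-201 held 55.0% and 52.7% and Adamts7-201 held 52.8% and 47.2%. The rest of the Mmp23 level lay on 3 retained-intron models of 513, 536 and 1183 bases. Over protein-coding models alone Mmp23 had 18.9 and 17.0 TPM, below Mmp11 with 25.4 and 29.0 TPM. The division of reads among models was made by the authors' quantification, and its error is not given.

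The comparison of the 2 libraries asks whether any member differed between the pools. An exact binomial test, two-sided, was run for the 20918 genes with at least 10 counts in sum. It takes account of counting error alone and compares 2 libraries, not conditions. Genes were called different at a Benjamini-Hochberg adjusted p below 0.05 and a fold of at least 2, with ratios given as replicate 1 over replicate 2. Of all genes tested 1407 (6.73%) were called, 1238 higher and 169 lower in replicate 1. Of the 40 members tested 0 were called. The share called was lower among genes with more counts. Of the 14068 genes with at least 100 counts in each library 234 were called, and of the 35 members among them 0. Mmp3 had too few counts for the test.

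At any fold the adjusted p was below 0.05 for 19 of the 40 members (47.5%), 8 higher and 11 lower in replicate 1, and for 32% of all genes tested. With counting error alone, small ratios pass more easily in genes with more counts. At least 100 counts in each library were held by 35 of the 40 members and by 14068 of the 20918 genes. The share at matched counts was not computed, so the 2 percentages are not comparable. The unadjusted p was below 0.05 for 23 members. The median absolute log2 ratio was 0.15 for the members and 0.15 for all genes, and 0.12 and 0.10 among those with at least 100 counts in each library. With the edgeR exact test and a common dispersion (biological coefficient of variation 20.0%), 674 genes passed an adjusted p of 0.05, 0 members did, and 0 members had an unadjusted p below 0.05. The dispersion was estimated over the genes tested from the same 2 libraries, taken as replicates. Differences between the pools therefore enter the error that they are tested against. A gene that this test did not call is not shown to be equal in the pools.

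**Figure D4:**
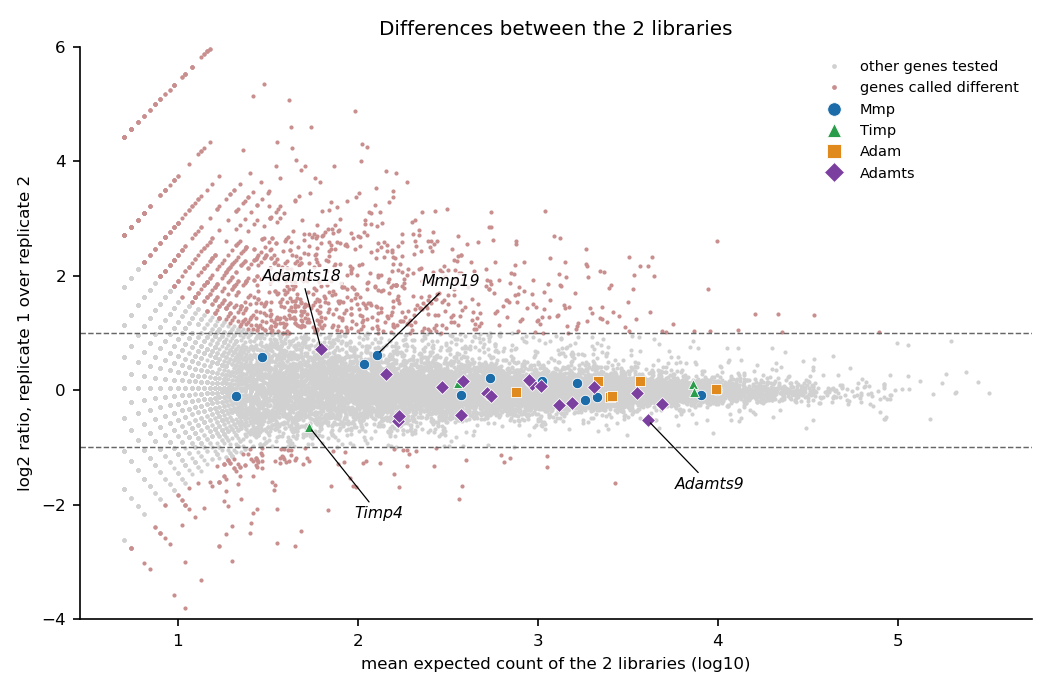
Log2 ratio of replicate 1 over replicate 2 against the mean expected count (log10) of the genes tested, with called genes in red, the 40 tested members by family and dashed lines at a log2 ratio of 1 and -1. All 40 members lie between the dashed lines, and 39 genes lie outside the axis range.

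The largest member ratio was that of Adamts18, with 77 and 48 counts and a log2 ratio of 0.72 (95% interval 0.19 to 1.28, adjusted p = 0.0252 by the exact binomial test). Timp4, with 41 and 66 counts, had a log2 ratio of -0.64 (-1.24 to -0.06, adjusted p = 0.0740, exact binomial test). Mmp19 stood at 0.62 (0.25 to 0.99, adjusted p = 0.00403, exact binomial test). These genes had few counts, and the intervals of Adamts18 and Timp4 extend past the fold threshold. Mmp2 was at the other end, with 9745 and 10015 counts and an interval of -0.04 to 0.04.

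Adamts9 had the largest ratio, up or down, among the 19 members with 10 TPM or more in both libraries. Its 3281 and 4844 counts gave a log2 ratio of -0.52 (-0.58 to -0.46, adjusted p = 2.91e-56, exact binomial test), below the fold threshold. Relative to all gene counts, the models without a protein-coding label gave -0.61 and the protein-coding models 0.20, so the lower value of replicate 1 lay in the models without that label. Adamts1 had -0.24 (adjusted p = 3.34e-15) and Adamts15 had -0.26 (adjusted p = 4.28e-05) by the same exact binomial test.

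Other genes also differed by class of model. Adamts16 had a log2 ratio of -0.44 (adjusted p = 0.000237, exact binomial test), with 309 and 315 counts on protein-coding models and 4.40 and 122 counts on the others. In Adamts10 the gene ratio was -0.06, while protein-coding models alone had 666 and 988 counts and a log2 ratio of -0.53. No test was made at the level of models.

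The partners of these proteinases were largely present. All 5 proprotein convertases, which cut pro-domains, were detected, led by Pcsk7 (12.2 and 13.3 TPM), Pcsk5 (11.4 and 12.01 TPM) and Furin (9.51 and 10.2 TPM). A list of 9 partners of ADAM17 and ADAM10 held Frmd8 beside iRhoms and TspanC8 tetraspanins, which guide these proteinases to the cell surface. Of the 9, 8 were detected, led by Tspan14 (58.9 and 54.7 TPM), Rhbdf1 (47.0 and 51.2 TPM) and Tspan15 (34.6 and 36.5 TPM). No gene of either list passed both call thresholds between the libraries. Tspan33, with 948 and 490 counts, was just below the fold threshold at a log2 ratio of 0.99 (adjusted p = 2.19e-35 by the exact binomial test and 0.355 by the edgeR exact test).

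Of 15 shed substrates of ADAMs 12 were detected, led by Cdh1 (134 and 154 TPM), App (134 and 139 TPM) and Notch2 (17.4 and 19.7 TPM). Of 6 proteoglycan substrates of ADAMTS proteinases 4 were detected, with Dcn at 487 and 420 TPM, Bgn at 62.3 and 53.3 TPM and versican (Vcan) at 27.8 and 25.3 TPM. Aggrecan (Acan), the cartilage substrate, stood at 0.49 and 0.85 TPM. Of 7 cartilage markers, Acan among them, 4 were detected, led by Col11a1 (11.1 and 12.4 TPM), while Matn1 stood at 0.03 and 0.05 TPM, and the list's sum was 19.1 and 22.9 TPM. Of 11 genes for fibrillar procollagens and their processing 8 were detected, led by Col3a1, Col1a1 and Col1a2, and 1, Pcolce2, was called different. Its log2 ratio of 1.01 (0.45 to 1.62) rests on 77 and 39 counts, and the edgeR exact test did not call it (adjusted p = 0.662).

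Other inhibitors and inducers were all detected, 7 of 7, led by Bsg (861 and 919 TPM), an inducer of MMPs, then Reck (17.9 and 18.3 TPM), a membrane-anchored inhibitor, and Spock3 (7.99 and 8.89 TPM). Of this list Pzp (log2 ratio 1.70) and A2m (1.04), broad proteinase inhibitors of plasma, were called higher in replicate 1, the library with more liver marker RNA. With the edgeR exact test the call of Pzp held (adjusted p = 0.00458) and that of A2m did not (adjusted p = 0.350). In the plasminogen system, which can activate pro-MMPs, 6 of 8 genes were detected, led by Serpine2 (80.7 and 85.8 TPM), Serpinf2 (52.4 and 40.7 TPM) and Plat (20.9 and 22.9 TPM). Plg, the plasminogen gene made in liver, was called higher in replicate 1, with 13.8 against 5.99 TPM (log2 ratio 1.24), a call that the edgeR exact test did not make (adjusted p = 0.0890).

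Further genes of the same families were measured outside the 41 members. Of the 10 other Mmp genes only Mmp8 was detected, ahead of Mmp25 and Mmp13. Of 13 other Adam genes 7 were detected, led by Adamdec1 (93.6 and 85.1 TPM), a secreted ADAM-like proteinase of gut stroma and macrophages, which stood above Adam10 in both libraries. Adam28 (11.1 and 9.85 TPM) and Adam33 (6.56 and 6.05 TPM) followed. Of 8 matched ADAMTS-like and other Adamts genes 6 were detected, led by Thsd4 (17.1 and 18.01 TPM). Macrophage markers were present, 8 of 8, with summed levels of 510 and 471 TPM beside the value of Adamdec1, and their part in it was not tested.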

How the data were processed

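Total RNA of 2 pools of whole embryonic stomachs was measured. The authors deposited a gene and a transcript table per library, quantified on mm10 against annotation M4, according to an accompanying text file. The sources used here name no program, aligner or strand setting. Per the file headers, the authors' tables hold expected counts, in which reads matching several features are divided among them, and TPM and FPKM scaled by length and library, spike-ins included. The transcript tables deposited by the authors give each transcript's share of its gene's TPM in percent.

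Spike-ins took 1.88% and 3.00% of the counts and were excluded from tests and library sizes, as were the 86 and 85 counts on numeric identifiers. Gene symbols, types and coordinates came from GENCODE M21 (98.0% of genes matched). The depth of 44038879 and 45625704 counts in all limits low genes to the floor of 3 counts. The minimum for transcript shares was 100 counts in each library.

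Expected counts were rounded, since 33 of the 41 members were whole within 0.005 and the others were not. Library sizes were TMM-scaled over the genes tested (edgeR 4.0.16, R 4.3.3). The two-sided exact binomial test compared both libraries, with Benjamini-Hochberg adjustment over all 20918 genes and a prior count of 0.5 in the ratios. The test was tried on simulated counts. Intervals of counts are exact Poisson limits. Other analysis used Python 3.11.15 and scipy 1.17.1. DESeq2 1.42.0 size factors and other units, thresholds and library sizes were alternatives.

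The members and lists were chosen with earlier results of these data known. By rule, all 41 members are accounted for, context lists are given by their 3 highest genes and any called different, and isoforms are named where the leading model held under 60%, differed between libraries or was not protein-coding. The Adam17 and Adamts16 models, and Mmp1a, Mmp1b, Acan, Matn1, Col11a1, Tspan33, Elane, Mpo, Camp and the neighbours of members, were chosen after their values were seen. S100a9 and Adamts13 were named in the same way. Of the 9 symbols listed for ADAMTS-like and other Adamts genes, 1 (Adamtsl6) was not matched.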

Additional observations from a re-analysis of the deposited data

How the results depend on the processing

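With 2 libraries of 1 group, all statements are limited to these pools, and low genes by counting error. The detected members numbered 34. At 5 TPM they numbered 22, with 6 Mmp and 8 Adamts genes. All other thresholds, units and single libraries kept the counts in all and by family within 1.5 times. The mean log2 ratio of Timp to Mmp (-1.25) was -0.77 on CPM, -1.15 over protein-coding models and -1.62 without Timp2 and Mmp2, and -1.30 to -1.21 with 1 library left out. That of Adamts to Adam (-0.086) was 0.096 on CPM, -0.66 over protein-coding models and 0.26 without Adamts10 and Adam10, and -0.20 to 0.03 with 1 library left out. Protein-coding models alone were chosen after seeing the data.

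Of all genes, 1407 were called different. The count was 3505 with spike-in library sizes, 856 with at least 50 counts, 674 with the edgeR exact test and 420 over genes with whole counts. Members called stayed at 0 under every alternative except spike-in sizes, which shift the median log2 ratio of all genes by 0.68, called 4 members (Mmp19, Mmp24, Mmp28 and Adamts18) and put the members' median absolute log2 ratio at 0.67. No paired analysis was possible because there is only 1 group.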
